A study of Mus musculus with 24 samples.

Results

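Wild-type myotubes were compared with wild-type myoblasts across all genes on the arrays. The comparison used 12 of the 24 arrays of the series, chosen by their titles: 3 myoblast cultures (A, B and C) and 3 myotube cultures (G, H and I), each hybridised to 1 MOE430A and 1 MOE430B array. Both groups were mouse primary skeletal muscle cells with an intact Rb gene. The myoblasts were derived from satellite cells, the stem cells of muscle fibres, and grew in Ham's F-10 medium with 20% fetal bovine serum and bFGF. The myotubes were harvested on day 6 of low serum, in DMEM with 5% horse serum. Genotype and tissue were thus shared, while medium, serum, growth factor and stage of differentiation changed together and cannot be told apart. The labels call the myoblasts biological triplicates and the myotubes 3 independent cell lines, with no link between a myoblast and a myotube culture. They describe the myoblasts as homogenous cultures and the myotubes as prepared by dissociation and selective plating, give a purity of 99 to 100% by Desmin and MyoD staining for both, and name fibroblasts as the contaminating cells.

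When myoblasts are deprived of growth factors they leave the cell cycle, the MyoD and MEF2 transcription factors switch on muscle genes, and the mononucleated cells fuse into multinucleated myotubes. The contractile and cell-cycle genes are the known landmarks of this step, and they were set aside here so that the rest of the transcriptome could be described. Muscle tissue is also known for its own versions of many housekeeping enzymes, for high glucose and fat use, and for an excitable surface membrane.

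Each value is a MAS5 signal, a brightness of a probe set on a linear scale, and changes are differences of the mean log2(signal + offset) between both groups. A gene was called when its limma adjusted p was under 0.05. The fit held all 12 cultures of the series. The SE and adjusted p therefore also take in the spread of the 6 cultures lacking Rb that are described below. Between cultures of the same group, Pearson's r over all genes was 0.885 to 0.959 among the myoblasts and 0.891 to 0.914 among the myotubes. Myoblast culture B was scanned on the same day as all 3 myotube cultures, and A and C on an earlier day. On MOE430A the 18S rRNA control probe sets read 7903 in B and 6804 to 11502 in the myotubes, against 511 in A and 199 in C. The 3' to 5' signal ratio of the beta-actin control on MOE430A was 1.06 to 1.18 in the myoblasts and 0.422 to 0.593 in the myotubes. Because of the shared scan day, counts of called genes in the pathway lists are given also from a fit with scan day as a block, in which the change is that of the 3 myotube cultures against B.

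Of the muscle identity markers, desmin, M-cadherin, Myod1 and Myog read well above the offset in every culture of both groups. The marker Myf5 did so in the myoblasts but read 16.8, 58.9 and 437 in myotubes G, H and I. Desmin (Des), the muscle intermediate filament, read 9622 to 12387 in the myoblasts and 40976 to 48537 in the myotubes, a rise of 2.03 (SE 0.33, adjusted p = 0.000569). M-cadherin (Cdh15) stayed between 6836 and 9294 in all 6 cultures (log2 change 0.17, SE 0.20, adjusted p = 0.539).

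Of 14311 genes tested, 4301 (30.1%) were called. The calls were almost evenly split, with 2082 genes (14.5%) higher and 2219 (15.5%) lower in myotubes. The median change over all genes was 0.14. At least a 2-fold change was seen in 1247 of the genes that rose and 1466 of those that fell, and at least a 16-fold change in 53 and 14. Among these largest changes, 25 of the 53 rises were contractile genes and 7 of the 14 falls were cell-cycle genes. Outside the set-aside lists 4012 genes were called. A fit of the 6 wild-type cultures alone called 3783 genes, 1812 higher and 1971 lower, and 3590 were called in the same direction in both fits. The 3 myotube values lay entirely above or below the 3 myoblast values for 6328 genes, 44.2% of those tested. With scan day as a block 1045 genes (7.3%) were higher and 1077 (7.53%) lower.

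**Figure D1:**
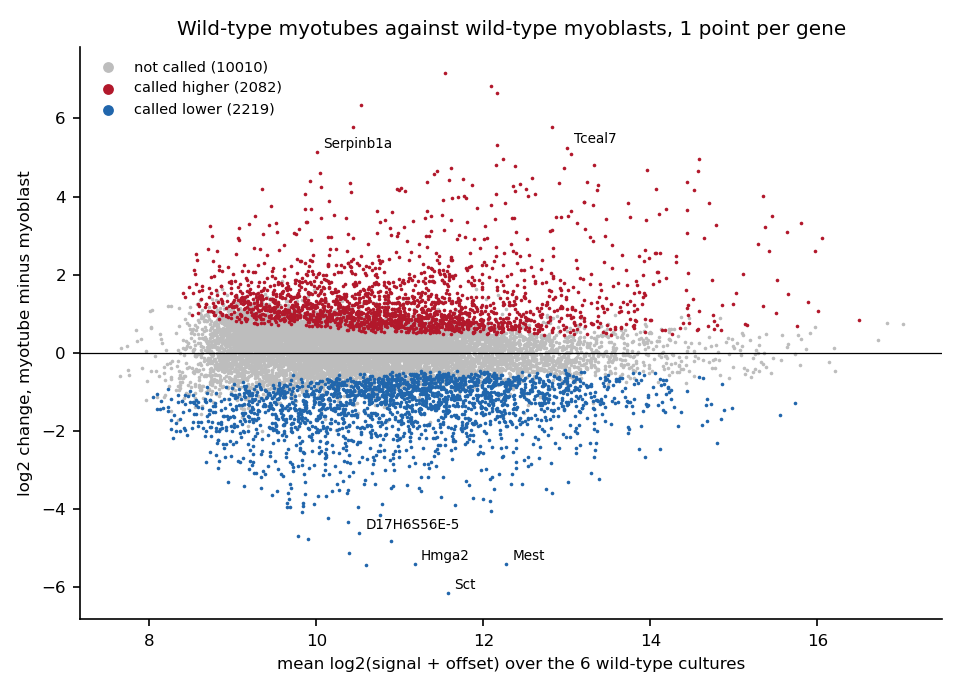
Log2 change of myotubes against myoblasts (y axis) for 14311 genes against their mean log2(signal + offset) in the 6 wild-type cultures (x axis). Red points are the 2082 genes called higher, blue points the 2219 called lower and grey points the genes not called; Tceal7 and Serpinb1a rose and Sct, Mest, Hmga2 and D17H6S56E-5 fell at the edges of the cloud.

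The largest rises outside the contractile list were not in 1 pathway but in genes of muscle metabolism, membrane and gene control. Tceal7, an X-linked gene related to transcription elongation factors, led them. Its signals were 2027, 656 and 1023 in myoblasts A, B and C and 51009, 59007 and 42994 in myotubes G, H and I. The groups were far apart, and the rise was 38.1-fold (log2 change 5.25, SE 0.40, adjusted p = 1.71e-06). Serpinb1a, an inhibitor of serine proteases known from neutrophils, read 33.1, 50.8 and 46.5 in the myoblasts and 4507, 4742 and 9860 in the myotubes. All 3 myoblast values were below the offset added before taking logs, so its 35.1-fold rise (log2 change 5.13, SE 0.42) understates the ratio of the signals.

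Several of the leading rises belong to energy supply. Ckm, cytosolic muscle creatine kinase, went from 2122, 1587 and 828 to 52372, 47676 and 28162 (log2 change 4.74, SE 0.48, adjusted p = 1.60e-05). Mb, the oxygen store myoglobin, went from 5117, 2197 and 2464 to 94318, 88465 and 62160 (log2 change 4.67, SE 0.67). Prkag3, the muscle gamma subunit of AMP-activated kinase, went from 2984, 427 and 109 to 26454, 28055 and 18032. Its myoblast cultures differed widely among themselves, and the SE of its log2 change of 4.80 was 0.73. Coq8a, which is needed to make coenzyme Q, rose by 4.36 (SE 0.39), and Cd36, the fatty acid transporter, by 4.39 (SE 0.45), from 28.7 to 167 in myoblasts to 3265 to 6485 in myotubes.

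Membrane and calcium genes formed another part of these rises. Dhrs7c, a dehydrogenase of the sarcoplasmic reticulum, rose by 4.74 (SE 0.61), and Fxyd1, phospholemman, a regulator of the sodium pump, by 4.61 (SE 0.36). Ramp1, which turns a receptor into the receptor of the nerve peptide CGRP, went from 438, 713 and 480 to 12001, 16897 and 13878 (log2 change 4.42, SE 0.37, adjusted p = 3.57e-06). Itgb1bp2, melusin, which binds the integrin beta 1 tail, rose by 4.77 (SE 0.61). Ndrg4 rose by 4.65 (SE 0.38), and Hspb7, a small heat shock protein of heart and muscle, by 4.45 (SE 0.43). Asb2, a subunit of a ubiquitin ligase that breaks down filamins, went from 1729, 1345 and 1430 to 46862, 25401 and 34721, with the smallest SE of the leading rises (log2 change 4.36, SE 0.24, adjusted p = 1.47e-07). Mef2c, the MEF2 factor of differentiated muscle, went from 3898, 1122 and 1761 to 37264, 57292 and 40124 (log2 change 4.38, SE 0.47).

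The largest falls outside the cell-cycle list were led by Sct, which encodes the gut hormone secretin. It was among the bright signals of the myoblasts, at 20732, 31037 and 25813, and read 249, 211 and 236 in the myotubes. The fall was 70.9-fold (log2 change -6.15, SE 0.48, adjusted p = 2.19e-06). Mest, a paternally expressed imprinted gene, went from 21014, 35951 and 44126 to 672, 682 and 538 (log2 change -5.41, SE 0.30, adjusted p = 1.53e-07). Hmga2, a chromatin protein of proliferating and embryonic cells, went from 19038, 10678 and 16297 to 234, 148 and 318 (log2 change -5.40, SE 0.32). Plagl1, an imprinted zinc finger factor, fell by 4.81 on the log2 scale (SE 0.40), and D17H6S56E-5 had a log2 change of -4.62 (SE 0.33).

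Other leading falls were genes of signalling and matrix. Id2, which binds and blocks the partners of MyoD, went from 3529, 4353 and 3313 to 118, 132 and 143 (log2 change -3.88, SE 0.41, adjusted p = 2.31e-05). Dusp4, a phosphatase that turns off MAP kinases, fell by 3.78 (SE 0.58), and Rgs5, which shortens G protein signals, by 4.08 (SE 0.61). Ackr3, a scavenging receptor of the chemokine CXCL12, fell by 3.83 (SE 0.39). Zfp36l2, which binds AU-rich elements of messenger RNAs and promotes their decay, fell by 3.73 (SE 0.43). Col3a1, a fibrillar collagen, went from 13975, 18826 and 20914 to 2821, 218 and 1077, with myotube culture H the lowest (log2 change -4.05, SE 0.58). Cthrc1, a secreted matrix protein, fell by 3.60 (SE 0.46), Itgb4, the integrin of hemidesmosomes, by 3.54 (SE 0.37), and Ywhaq, a phosphoserine-binding adaptor, by 3.69 (SE 0.36). 4930579G24Rik, known here by its clone name alone, fell by 3.59 (SE 0.24). All 30 leading genes were also called with scan day as a block, a fit that shares the myotube cultures and B with the values that chose them.

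**Figure D2:**
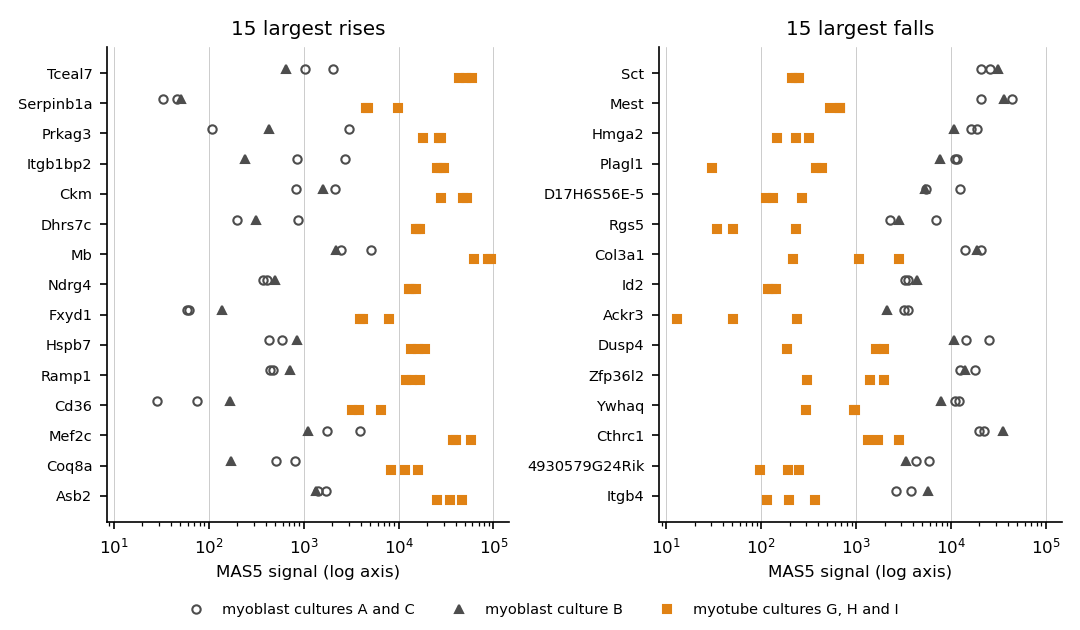
MAS5 signal on a log axis in each wild-type culture for the 15 largest rises (left) and the 15 largest falls (right) outside the contractile and cell-cycle lists. Circles are myoblast cultures A and C, triangles myoblast culture B and squares myotube cultures G, H and I; the genes were chosen so that the squares do not overlap the other symbols, and the myoblast cultures lie far apart in Prkag3 (2984, 427 and 109) and Itgb1bp2 (2757, 242 and 847).

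The promoters of some leading genes are shown because the groups of called genes differed in short motifs of this window. The sequences are RefSeq promoters on GRCm38.p6, from 250 bases before to 50 after the annotated start, and 23 of the 30 leading genes had such an entry. The E-box CAGCTG, the core that MyoD factors prefer, was searched on both strands, which read the same, and was found in Prkag3 (chr1:74748906-74749205, minus strand) and Ckm (chr7:19410844-19411143, plus strand). It was found in Sct and Mest as well. The GC box GGGCGG, also searched on both strands, was found in Sct (chr7:141279084-141279383, minus strand), Mest (chr6:30733256-30733555, plus strand) and Hmga2 (chr10:120476420-120476719, minus strand), where in Hmga2 it lies on the other strand. Leading rises were printed only where the window held CAGCTG, and the largest falls only where it held GGGCGG, so those matches were fixed by the choice. Capitals mark every match of both motifs, and the matches do not overlap each other.
Prkag3: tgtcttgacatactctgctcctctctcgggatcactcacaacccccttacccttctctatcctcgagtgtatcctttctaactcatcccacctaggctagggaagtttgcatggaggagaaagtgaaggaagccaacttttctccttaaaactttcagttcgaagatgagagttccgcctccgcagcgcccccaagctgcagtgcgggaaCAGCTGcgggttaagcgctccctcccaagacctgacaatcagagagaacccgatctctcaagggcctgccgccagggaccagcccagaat
Ckm: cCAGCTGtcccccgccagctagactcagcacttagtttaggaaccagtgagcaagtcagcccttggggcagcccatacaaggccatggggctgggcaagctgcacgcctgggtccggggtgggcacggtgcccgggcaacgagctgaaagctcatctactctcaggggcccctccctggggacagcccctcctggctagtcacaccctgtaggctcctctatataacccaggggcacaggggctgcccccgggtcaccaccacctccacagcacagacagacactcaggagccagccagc
Sct: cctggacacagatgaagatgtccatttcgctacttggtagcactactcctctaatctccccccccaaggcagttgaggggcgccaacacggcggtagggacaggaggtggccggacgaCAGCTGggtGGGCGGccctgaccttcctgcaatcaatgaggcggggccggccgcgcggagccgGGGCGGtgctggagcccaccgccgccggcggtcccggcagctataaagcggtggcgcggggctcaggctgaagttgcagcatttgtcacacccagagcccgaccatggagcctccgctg
Mest: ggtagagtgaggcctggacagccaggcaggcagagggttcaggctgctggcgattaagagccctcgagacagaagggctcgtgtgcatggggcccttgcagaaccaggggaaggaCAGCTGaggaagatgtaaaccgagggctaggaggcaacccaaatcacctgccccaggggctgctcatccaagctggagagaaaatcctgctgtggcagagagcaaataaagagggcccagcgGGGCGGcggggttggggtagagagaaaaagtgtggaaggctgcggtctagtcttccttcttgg
Hmga2: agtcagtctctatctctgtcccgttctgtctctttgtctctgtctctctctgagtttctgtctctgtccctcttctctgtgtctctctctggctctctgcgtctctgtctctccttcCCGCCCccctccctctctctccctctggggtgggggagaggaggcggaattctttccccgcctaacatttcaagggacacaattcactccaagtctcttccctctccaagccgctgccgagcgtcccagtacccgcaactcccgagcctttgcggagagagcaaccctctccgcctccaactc

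CAGCTG was in 15.7% of the 11502 promoters of genes tested, in 18.6% of those of genes called higher and in 13.1% of those of genes called lower. The share was 43.3% of 67 promoters of contractile genes that rose, and 17.5% in the genes that rose outside the set-aside lists. Among the leading genes with a promoter it was in 2 of 12 rises and in 4 of 11 falls. GGGCGG was in 59.4% of tested promoters, 57.6% of those called higher and 70.0% of those called lower, and leaving out the set-aside lists gave 69.8% for the latter. Among the leading genes with a promoter GGGCGG was in 2 of 12 rises and in 7 of 11 falls. CCAAT (both strands) was in 38.1% of tested promoters and in 64.2% of 162 promoters of cell-cycle genes that fell. TTTGAA (both strands), the core of the cell-cycle homology region, was in 12.3% and 40.7% in the same order, and TTTCCCGC (both strands), an E2F-type site, in 1.90% and 9.26%. In the genes that fell outside the set-aside lists TTTGAA was in 12.8% and TTTCCCGC in 3.37%. A match describes letters in this window and is not a bound site.

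Among the muscle transcription factors 16.2% rose, near the 14.5% of all genes, and 35.1% fell, above the 15.5% of all genes. Of 37 genes tested in a list of them, 6 rose and 13 fell (3 and 9 with scan day as a block). Besides Mef2c, Myf6, the late MyoD-family member MRF4, rose by 3.05 (SE 0.52), and the repressor Zeb1 by 1.83 (SE 0.25). Myod1 went from 38493, 49161 and 40327 to 18609, 16171 and 16567, a fall of 1.31 on the log2 scale (SE 0.20, adjusted p = 0.000344). Myf5, the early factor of myoblasts, went from 2756, 1045 and 1790 to 16.8, 58.9 and 437 (log2 change -2.90, SE 0.68, adjusted p = 0.00657), and was not called with scan day as a block (adjusted p = 0.149). Pax7, the satellite cell factor, went from 2486, 1778 and 2549 to 771, 537 and 674 (log2 change -1.60, SE 0.25). Id3 fell by 3.48 (SE 0.30), beside Id2. Myog, myogenin, was already at 17379 to 30531 in the myoblasts and reached 33200 to 45303 in the myotubes, without overlap. The difference did not pass the test (log2 change 0.90, SE 0.56, adjusted p = 0.238). Its SE also takes in the cultures lacking Rb, which read 8523 to 47126.

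Many enzymes and transporters have a gene used in most tissues and a related gene used in striated muscle. In 21 such pairs with both genes tested, chosen with the values known and therefore given as a description, the muscle-type gene was called higher and the general gene lower in 12 pairs (9 with scan day as a block). In 6 pairs the muscle-type gene rose and the general gene was not called, in 2 both rose and in 1 neither was called. The exchange ran through glycolysis, where Pgam2 rose by 3.70 (SE 0.59) and Pgam1 fell by 2.64 (SE 0.30), and Pfkm rose by 3.42 while Pfkl fell by 2.43. The latter was not called with scan day as a block (log2 change -1.58, adjusted p = 0.0860). It also ran through the cytochrome c oxidase of the respiratory chain, where Cox6a2 rose by 4.18 (SE 0.64) and Cox8b by 3.51 (SE 0.36) and Cox6a1 fell by 1.19 and Cox8a by 1.18. Among the glucose transporter genes Slc2a1 fell (log2 change -1.11) and Slc2a4 rose (3.52, SE 0.44). For the fatty acid binding proteins, Fabp5 fell (-2.44) and Fabp3 rose (3.36). For adenylosuccinate synthase of the purine nucleotide cycle, Adssl1 rose by 3.00 and Adss fell by 2.34. Actin filament turnover showed the same arrangement, with Cfl2 and Cap2 up by 1.77 and 2.71 and Cfl1 and Cap1 down by 2.30 and 2.24, and so did the caveolins, with Cav3 up by 4.01 (SE 0.38) and Cav1 down by 1.08 (SE 0.33, adjusted p = 0.140 in the block fit). Prkag3, Pygm, Ampd1, Cox7a1, Capn3 and Mapk12 rose with no called change of Prkag1, Pygb, Ampd2, Cox7a2, Capn2 and Mapk14. Ckb and Ckmt1 rose along with Ckm and Ckmt2, of which Ckmt1 was not called in the block fit (adjusted p = 0.133). The elongation factors were the pair with no call, at 0.73 for Eef1a1 and 0.57 for Eef1a2.

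**Figure D3:**
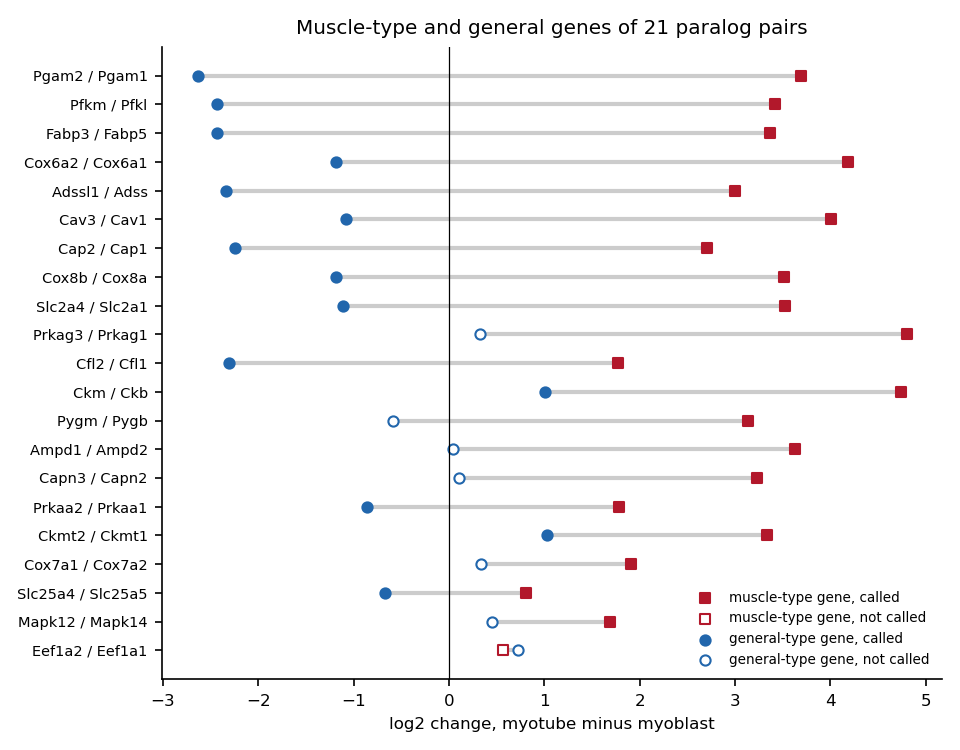
Log2 change of myotubes against myoblasts (x axis) for the muscle-type gene (red squares) and the general gene (blue circles) of 21 pairs (y axis), filled where called. In 12 pairs the filled square lies above 0 and the filled circle below 0.

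Energy metabolism as a whole leaned upwards. Of 73 genes tested that encode oxidative phosphorylation subunits, 29 rose and 2 fell (15 and 2 with scan day as a block), with a median log2 change of 0.51, and the genes that fell were the general subunits Cox6a1 and Cox8a. Of 49 glycolysis and glycogen genes 20 rose and 7 fell (16 and 4 in the block fit). Pgm5, a relative of phosphoglucomutase found at muscle adhesions, rose by 3.86 (SE 0.46), while Gpd2, of the glycerol phosphate shuttle, fell by 2.68 (SE 0.40). A list of 45 genes of the TCA cycle, other mitochondrial enzymes and energy buffers, which also holds the cytosolic Ckm and Mb, had 15 higher and 8 lower (9 and 2 in the block fit). Of 49 genes for fatty acid oxidation, uptake and storage 19 rose and 6 fell (11 and 3 in the block fit): Acsl6, which activates long-chain fatty acids, rose by 2.93 (SE 0.25), while Cpt1a, the general form of the carnitine transferase, fell by 2.18 and lipoprotein lipase (Lpl) by 1.88. The fall of Lpl was -1.13 in the block fit and not called there (adjusted p = 0.0892). Ppargc1a, the coactivator known to drive mitochondrial growth, did not pass the test (log2 change 0.39, SE 0.31, adjusted p = 0.350) and was at -0.04 in the block fit. Pdk4, which inhibits pyruvate dehydrogenase, read 886, 5224 and 2287 in the myoblasts and 2829, 3405 and 1416 in the myotubes, and the groups overlapped (log2 change 0.10, SE 0.58).

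Genes of cholesterol and fatty acid synthesis had the largest share of rises among the lists with at least 15 tested genes, the set-aside contractile list left out. Of 35, 19 rose and 1 fell (12 and 1 with scan day as a block), with a median log2 change of 0.77 beside 0.14 for all genes. Fdps, which makes farnesyl diphosphate, rose by 2.47 (SE 0.36, adjusted p = 0.000257), Msmo1, which removes sterol methyl groups, by 2.31 (SE 0.30), and Scd1, the stearoyl-CoA desaturase, by 2.40 (SE 0.39). The gene that fell was Elovl5, an elongase of polyunsaturated fatty acids (log2 change -2.14, SE 0.29).

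Genes of membrane excitability and the neuromuscular junction rose in 18 of 44 and fell in 1 (10 and 0 in the block fit). Fxyd6, another sodium pump regulator, rose by 4.32 (SE 0.42) beside Fxyd1, and Popdc2, a cyclic AMP binding membrane protein, by 2.86 (SE 0.35). The sodium-calcium exchanger Slc8a1 fell by 0.86 (SE 0.26), but without the signal filter, where another probe set stands for the gene, its change was 0.76, and it was not called in the block fit (adjusted p = 0.473). Of 34 genes of the dystrophin complex and costamere 14 rose and 3 fell (6 and 2 in the block fit), with dystroglycan (Dag1) up by 2.77 (SE 0.31) and dystrophin (Dmd) by 2.36 (SE 0.36), and the focal adhesion protein zyxin (Zyx) down by 2.44 (SE 0.25). The list of fusion and membrane repair genes moved both ways, with 18 of 49 higher and 11 lower (11 and 6 in the block fit): Cavin4 and dysferlin (Dysf) rose by 2.97 and 2.48, and Mtm1, a lipid phosphatase whose loss causes a myopathy, fell by 3.36 (SE 0.33).

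Genes of protein breakdown in muscle rose more often than they fell. Muscle ubiquitin ligases had 41.7% higher and 11.1% lower and autophagy and lysosome genes 29.3% and 9.33%, beside 14.5% and 15.5% of all genes. Of the proteasome genes 4.35% rose, below the share of all genes, and 15.2% fell, near that share. Of 36 muscle ubiquitin ligase genes 15 rose and 4 fell (9 and 1 in the block fit). Besides Asb2, the kelch proteins Klhl30 and Klhl40 rose by 4.18 (SE 0.37) and 3.39 (SE 0.38), and the ligases Smurf2 and Smurf1, which target SMAD proteins, fell by 1.21 and 1.09, without a call in the block fit (adjusted p = 0.132 and 0.250). Of 75 autophagy and lysosome genes 22 rose and 7 fell (17 and 2 in the block fit). Atg4a, which processes LC3-type proteins, rose by 2.51 (SE 0.34), Map1lc3a, an LC3, by 1.87 (SE 0.28), and the lysosomal protease Ctsf by 1.82 (SE 0.45). The proteasome stood apart from these, with 2 of 46 genes higher and 7 lower (2 and 3 in the block fit).

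Secreted signals and their receptors changed in a mixed way. In the TGF-beta, BMP and activin list 14 of 46 genes rose and 6 fell (7 and 4 in the block fit). Follistatin (Fst), which traps myostatin and activin, went from 3010, 3037 and 1359 to 23493, 36959 and 24303 (log2 change 3.50, SE 0.59, adjusted p = 0.000715). Tgfb3 rose by 3.13 (SE 0.37), and the BMP antagonist Grem1 by 2.58 (SE 0.88), the latter not called in the block fit (adjusted p = 0.292). Fstl1 fell by 3.27 (SE 0.37) and the inhibitory SMAD Smad7 by 1.56 (SE 0.22). Of 46 genes of IGF, insulin and mTOR signalling 10 rose and 4 fell (5 and 1 in the block fit). Igf2, the growth factor that myoblasts make for themselves during differentiation, went from 26607, 9547 and 21026 to 67146, 70784 and 75836 (log2 change 2.02, SE 0.37), and Irs1, the insulin receptor substrate, fell by 1.67 (SE 0.22). Igfbp5, an IGF binding protein, did not pass the test and its cultures overlapped, with a log2 change of -0.98 (SE 0.92) that turned to 0.71 in the block fit.

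Growth factor receptors and their feedback genes moved in both directions. In the FGF, EGF, PDGF, HGF and MAP kinase list 16 of 71 genes rose and 16 fell (8 and 8 in the block fit), 22.5% each beside 14.5% and 15.5% of all genes. Fgfrl1, an FGF receptor without a kinase, rose by 3.45 (SE 0.31), and the neuregulin receptors Erbb3 and Erbb2 by 2.48 and 2.03, while Met, the HGF receptor, fell by 2.61 (SE 0.30) as did the growth factor Csf1 (-2.75, SE 0.29). Of 58 WNT and Hedgehog genes 10 rose and 9 fell (5 and 5 in the block fit), and these shares of 17.2% and 15.5% were near those of all genes. The secreted WNT inhibitor Wif1 rose by 3.25, the receptor Fzd9 by 3.16 and the feedback gene Axin2 by 2.09, while Gas1, a co-receptor of Hedgehog ligands, fell by 3.45 (SE 0.34) and the TCF factor Tcf7l1 by 2.90 (SE 0.28). The Notch list was also near the shares of all genes, with 15.4% higher and 19.2% lower. Of its 26 genes 4 rose and 5 fell (0 and 5 in the block fit), the latter including the receptor Notch2 (-2.07), the glycosyltransferase Lfng (-2.02) and the ligand Dll1 (-1.35). Among 50 guidance genes 12 rose and 10 fell (7 and 7 in the block fit). These shares were 24.0% higher and 20.0% lower. The secreted semaphorins Sema3f, Sema3b and Sema3c rose by 2.91, 2.65 and 2.29, and Efnb2 (-3.10), Robo1 (-2.84) and Epha2 (-2.75) fell. The chemokine Cxcl12 and its receptor Cxcr4 fell by 3.16 and 2.61, together with the scavenging receptor Ackr3 named above.

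The machinery that processes and exports RNA fell widely. Of 35 snRNP and core spliceosome genes 24 fell and 1 rose (15 and 1 with scan day as a block), with a median log2 change of -0.76. Lsm6, of the U6 particle, fell by 2.20 (SE 0.27), and the Sm proteins Snrpd3 and Snrpg by 1.87 and 1.79, while Prpf19 rose by 1.20 (SE 0.18). Of 40 splicing and RNA-binding factors studied in muscle 23 fell and 4 rose (19 and 3 in the block fit), with a median of -1.01. Ptbp1, which represses muscle and neuronal exons, went from 13809, 12948 and 14366 to 2374, 1977 and 3802 (log2 change -2.33, SE 0.20, adjusted p = 5.05e-06). Khsrp, which promotes decay of messenger RNAs with AU-rich elements, fell by 2.48 (SE 0.39). Rbm38 rose by 1.93 (SE 0.28), and Rbfox1 and Rbfox2, which bind near muscle exons, by 1.35 and 0.75, the last 2 without a call in the block fit (adjusted p = 0.704 and 0.625). Mbnl1 (-0.45, SE 0.21) and Rbm24 (-0.23, SE 0.35), other regulators of muscle splicing, did not pass the test. Of 44 nuclear pore and transport genes 22 fell and 1 rose (16 and 2 in the block fit). The export receptor Xpo1 fell by 2.19 (SE 0.16) and Ranbp1, of the Ran cycle, by 2.15 (SE 0.22).

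Growth machinery fell along with it. Of 70 genes of ribosome biogenesis and RNA polymerases I and III 29 fell and 0 rose (16 and 1 in the block fit), with Rrs1 down by 2.44 (SE 0.21) and nucleophosmin (Npm1) by 2.06 (SE 0.24). Of 48 translation factor genes 14 fell and 2 rose (5 and 1 in the block fit), with the cap-complex helicase Eif4a1 down by 1.31. Myc, the growth regulator, fell by 1.48 (SE 0.36, adjusted p = 0.00807), which was not called in the block fit (adjusted p = 0.0633). Of 34 purine and pyrimidine genes 16 fell and 3 rose (11 and 3 in the block fit). The rises were Ampd1, Adssl1 and Impdh1, of which the former 2 encode the muscle enzymes of the purine nucleotide cycle, and Pfas, of the purine pathway itself, fell by 2.11 (SE 0.24). In the pentose phosphate and hexosamine list 9 of 17 genes fell and 1 rose (3 and 1 in the block fit), led by Ugdh, which makes UDP-glucuronate for matrix sugars (-3.19, SE 0.27). The one-carbon, serine and polyamine list had 10 of 39 lower and 2 higher (8 and 2 in the block fit).

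Chromatin genes fell in 34 of 114 and rose in 7 (14 and 5 in the block fit), with a median of -0.35. After Hmga2 the largest falls were H3f3b, which encodes the replacement histone H3.3 (-2.60, SE 0.24), and Hmgn1 (-2.46, SE 0.24). The DNA methyltransferase Dnmt3a rose by 1.37 (SE 0.31). Homeobox genes were called less often than all genes, at 6.06% higher and 12.1% lower beside 14.5% and 15.5%. Of 33 HOX and other homeobox genes 2 rose and 4 fell (0 and 1 in the block fit).

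The non-muscle cytoskeleton moved against the contractile genes. Of 63 genes 30 fell and 9 rose (18 and 4 in the block fit), with a median of -0.56. Fascin (Fscn1), which bundles actin in protrusions, fell by 2.90 (SE 0.20), filamin A (Flna), a substrate of Asb2-containing ligases, by 2.79 (SE 0.25), and lamin B2 (Lmnb2) by 2.49 (SE 0.36). Actb went from 59503, 150772 and 65323 to 35085, 18069 and 33170 (log2 change -1.60, SE 0.36). Vimentin (Vim), the intermediate filament of mesenchymal cells, did not pass the test (-0.47, SE 0.40, adjusted p = 0.393).

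Matrix and adhesion genes changed in both directions, beside 14.5% of all genes higher and 15.5% lower. The integrin, cadherin and adhesion list was above both shares, with 32.7% higher and 25.5% lower. The matrix lists lay nearer to the shares of all genes. They had 10.3% higher and 20.7% lower for collagens, 20.37% and 12.96% for matrix glycoproteins, and 21.6% and 17.6% for matrix proteases, inhibitors and crosslinkers. Of 29 collagens 6 fell and 3 rose (4 and 1 in the block fit). Col18a1 and Col4a1, of basement membranes, fell by 3.49 (SE 0.65) and 3.10 (SE 0.41), while Col25a1 and Col4a6 rose by 1.94 and 1.61. In the block fit Col18a1 (adjusted p = 0.0518) and Col25a1 (adjusted p = 0.132) were not called. The probe set of Col1a1 read 25.7 to 97.5 in the myoblasts and 46.9 to 1541 in the myotubes and was not called. Of 55 integrins, cadherins and adhesion genes 18 rose and 14 fell (12 and 11 in the block fit). Itga9 rose by 2.67 and Gpc1 by 2.63, and Cd44, the hyaluronan receptor, and Vcam1 fell by 2.44 and 2.26. Matrix glycoproteins rose in 11 of 54 and fell in 7 (6 and 5 in the block fit), with Cilp up by 3.83 (SE 0.60) and Lamb1 down by 2.30 (SE 0.36). Proteases, inhibitors and crosslinkers of the matrix rose in 11 of 51 and fell in 9 (4 and 6 in the block fit), with Adam19 up by 2.30 and Pcolce2, an enhancer of collagen processing, down by 3.06.

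The fibroblast markers are given beside these genes because fibroblasts are the contaminant the labels name. Of 20 listed, 12 passed the signal filter, 1 (Pdgfra, log2 change 1.11, adjusted p = 0.394 in the block fit) was called higher and 0 lower. Their summed signal was 25588 to 30756 in the myoblast and 45173 to 50368 in the myotube cultures, and MAS5 signals lie above 0 by construction, so that no marker reads exactly 0. The part of fibroblasts in the matrix changes was not tested, and fewer cells of a type and less RNA per cell cannot be told apart in these bulk samples. The summed macrophage signal went the other way, from 23768 to 33169 in myoblasts to 14570 to 20002 in myotubes, with Csf1r higher and Lgals3 lower among 9 tested. The median log2 change of these 9 markers was 0.53, beside 0.69 for the fibroblast markers, so the fall of the sum was not that of the typical marker. The 10 endothelial and pericyte markers summed to 6407 to 12935 and 6390 to 10587, and the 12 neural markers to 8084 to 13645 and 10693 to 14936. Of the former 2 rose (Abcc9 by 2.07 and Cspg4 by 1.18) and 2 fell (Rgs5, log2 change -4.08, and Notch3, -0.99). Of the neural markers 1 rose and 1 fell. Smooth muscle markers rose in 3 of 6 (Synpo2, Mylk and Smtn) and adipocyte markers in 2 of 5 (Slc2a4 and Car3, which muscle fibres also express), with sums of 15389 to 26224 against 6408 to 8838 and of 153043 to 182164 against 25612 to 30614.

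Genes of secretion fell more often than they rose. Of 58 endoplasmic reticulum genes 18 fell and 4 rose (15 and 1 in the block fit), among them Sec61b, of the translocon (-2.29), and Serp1 (-2.17). The small heat shock genes Hspb2 and Hspb3 rose by 3.46 (SE 0.45) and 2.70 (SE 0.30) beside Hspb7, while Hsp90aa1, the inducible cytosolic HSP90, fell by 1.53 (SE 0.20). The chaperone list had 25.6% higher and 18.6% lower and the antioxidant list 18.75% each, beside 14.5% and 15.5% of all genes. Over 43 chaperone genes 11 rose and 8 fell (8 and 2 in the block fit). In the antioxidant list 9 of 48 rose and 9 fell (6 and 9 in the block fit), with Sod3, the extracellular superoxide dismutase, up by 3.29 (SE 0.61) and Prdx4, the peroxiredoxin of the endoplasmic reticulum, down by 2.86 (SE 0.25).

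Few cytoplasmic ribosomal protein genes were called, with 1 of 41 higher and 4 lower (0 and 9 in the block fit). Mitochondrial ribosome and import genes were higher in 2 of 74 and lower in 10 (2 and 3 in the block fit). Interferon and MHC class I genes had 5 of 39 higher and 3 lower (2 and 2 in the block fit). Immediate early genes, with 5 of 34 higher and 6 lower (1 and 5 in the block fit), were near the shares of all genes. Among them Fosl1, an AP-1 subunit, fell by 2.52 (SE 0.22), the matricellular genes Ccn2 and Ccn1 moved apart (2.30 and -2.05, with Ccn2 not called in the block fit at adjusted p = 0.156), and Fos itself was not called (-0.21, SE 0.31). Among 32 imprinted genes 6 rose and 4 fell (5 and 2 in the block fit). Igf2 and the noncoding RNA Meg3 rose by 2.02 and 2.07, and Mest, Plagl1 and Ndn (-1.68, not called in the block fit) fell. The shares of imprinted genes, 18.75% higher and 12.5% lower, were near the 14.5% and 15.5% of all genes. For interferon and MHC class I genes the shares were 12.8% and 7.69%, and for mitochondrial ribosome and import genes 2.70% and 13.5%. For the clock genes that follow they were 13.3% and 0%. Of 15 clock genes 2 rose and 0 fell (2 and 1 in the block fit), led by Bhlhe40, a repressor with an E-box binding domain (4.18, SE 0.52).

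**Figure D4:**
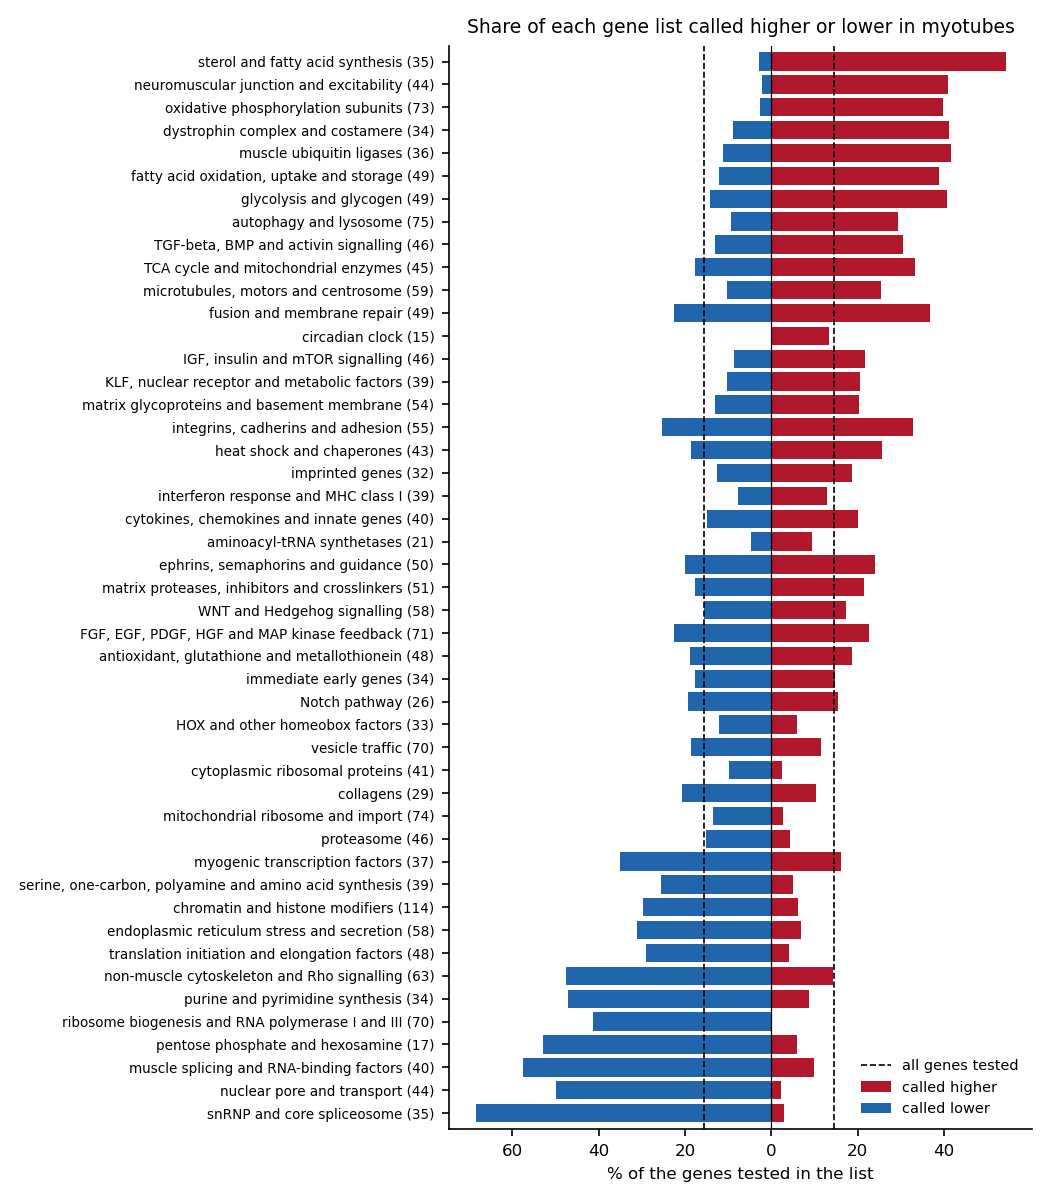
Share of the tested genes of each list called higher (red, to the right) or lower (blue, to the left) in myotubes, with the number tested in brackets. Dashed lines mark the shares over all genes tested, 14.5% higher and 15.5% lower; sterol synthesis reaches 19 of 35 higher, and the core spliceosome 24 of 35 lower.

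Genes were also grouped by the first letters of their symbols. Over all genes 14.5% were called higher and 15.5% lower, and the rises of solute carriers (16.6%) and potassium channels (17.0%) were near that share. Of 66 families with at least 10 tested genes, the integrin-named genes had 10 of 20 higher and 1 lower and the kelch-like genes 11 of 34 and 1. Complex I genes (Nduf) had 16 of 44 higher and 2 lower, with the block fit giving 13 and 0. Solute carriers rose in 45 of 271 and fell in 27, with Slc2a4 as the largest rise and Slc39a10, a zinc importer, as the largest fall (-3.28, adjusted p = 0.0679 in the block fit). Potassium channel genes rose in 9 of 53 and fell in 2, and none of them was called in the block fit, whose counts were 0 and 0. Zinc finger genes named Zfp were lower more often than higher, at 48 and 12 of 268 (11 and 7 in the block fit), and WD repeat genes likewise at 13 and 3 of 56.

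A single value per gene hid some opposite changes of its probe sets. Fitted separately, 7367 of 25498 kept probe sets (28.9%) were called. Among the 1495 genes with 2 or more called probe sets, 79 had a probe set called higher and another called lower. With scan day as a block there were 14 such genes, 10 of them among the 79. Among the widest splits were those of tropomyosins, actin-binding proteins whose muscle and non-muscle forms come from the same genes by alternative exons. For Tpm1, 1 probe set went from 25312, 44047 and 24660 to 78060, 99364 and 84126 (log2 change 1.52, SE 0.31), while another went from 7099, 19982 and 11090 to 1763, 480 and 1723 (log2 change -3.19, SE 0.45). For Tpm3 the extremes were 3.35 (SE 0.55) and -1.99 (SE 0.36), and the rise was uneven among the myotube cultures, at 2099, 16936 and 4796 in G, H and I.

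Pde4dip, myomegalin, which anchors proteins at the Golgi and the sarcomere, had a similar split between the chips. Its probe sets rose by 2.31 (SE 0.29) on MOE430A and fell by 2.96 (SE 0.30) on MOE430B. Asph, whose locus also encodes junctin of the calcium release complex, rose by 2.24 and fell by 1.58. Lrrfip1 rose by 1.92 and fell by 2.27, and Malat1, a nuclear noncoding RNA, rose by 1.82 and fell by 1.63. The other genes of the 12 with the largest opposite changes were Reep3, Masp1, Cryzl1, Synpo2, Bfar and Intu. Culture B lay near the myotubes in some of these splits. The rising probe set of Cryzl1 read 935, 4941 and 972 in A, B and C and 5808, 6278 and 4797 in the myotubes. The falling probe set of Bfar read 1097, 282 and 1830 in A, B and C and 90.8, 116 and 210 in the myotubes. Which transcripts these probe sets read was not tested. Across the called genes with a further kept probe set, 82.7% of 4143 further probe sets had the same direction, and 95.7% of the 1951 that were themselves called. On the other chip type 72.9% of 1233 did.

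The same step was measured in cultures lacking Rb, with 3 Rb-null myoblast cultures and 3 MCK-cre Rb-flox myotube cultures in the same media as the wild-type groups. In the latter a Cre recombinase driven by the muscle creatine kinase promoter deletes Rb once muscle cells differentiate, so the 2 Rb-lacking groups differ in how Rb was lost. No culture is shared with the wild-type pair. On both chip types every Rb-null myoblast culture was scanned on an earlier day than the Rb-flox myotube cultures. Scan day and stage thus cannot be told apart in the Rb-lacking change, while in wild type culture B shares the day of the myotubes. This also limits the differences between both changes. Of the 4301 genes called in wild type, 3922 had the same sign there, 1725 were called in the same direction and 13 in the opposite direction. The difference between both changes was called for 327 genes (2.28%), of which 298 were called in wild type. The count was 141 without culture C, 737 with array weights and 79 against a 1.5-fold change. The wild-type values enter both the calls and the difference, and in 292 of the 298 the change was smaller without Rb, a direction that choosing genes called in wild type favours. The difference was called for 11 of the 30 leading genes, 7 rises and 4 falls. The leading genes were likewise chosen by their wild-type change, which favours a smaller change without Rb in these 11. For 2 of them the estimate without Rb had the opposite sign but was itself not called (adjusted p = 0.268 for D17H6S56E-5 and 0.686 for Ramp1). D17H6S56E-5 went by -4.62 in wild type and 0.53 without Rb (adjusted p of the difference = 0.000124). Ramp1 went by 4.42 in wild type and -0.22 without Rb (adjusted p of the difference = 0.000509). Hmga2 (-5.40 and -5.12), Dusp4 (-3.78 and -3.86) and Ackr3 (-3.83 and -3.63) had close values in both, with no called difference.

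With the myotubes set against culture B, 1924 of the 4301 called genes were called again in the same direction. Signs are shared by construction to a large part, since B and the same myotube cultures entered both fits. The block fit rests on 1 myoblast culture, and its lower counts include that loss of replicates. Leaving out a single culture gave 2849 calls without C and 4963 without B. Of the genes named above as called, Csf1r, Lgals3, Notch3, Synpo2, Mylk and Intu also had no call in the block fit, nor had the rise of Tpm1. Other probe sets of the genes with opposite changes are left out of this list. The part of the scan day, or of culture B itself, in the values was not tested beyond this.

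**Figure D5:**
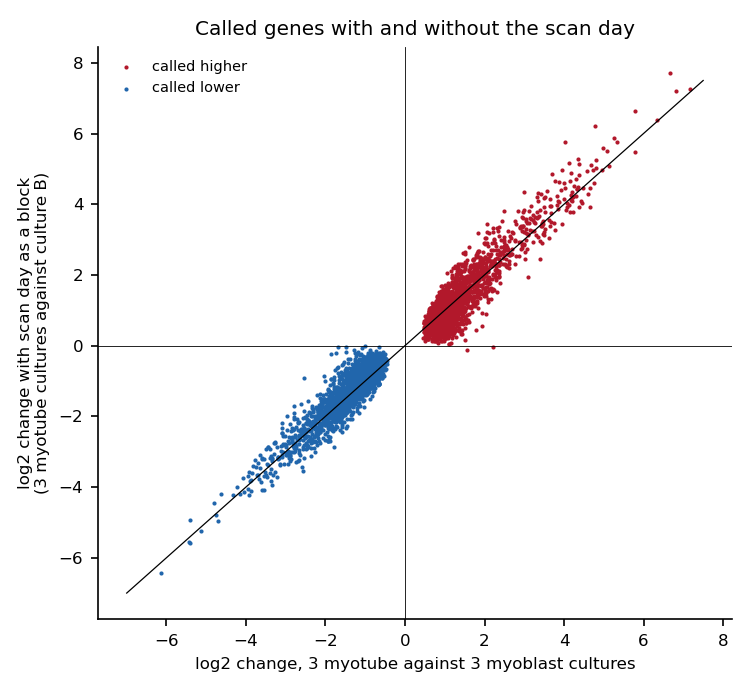
Log2 change from the fit of 3 against 3 cultures (x axis) against that from the fit with scan day as a block, which sets the 3 myotube cultures against culture B (y axis), for 4301 called genes. The points lie around the line of equality; both fits share culture B and all myotube cultures.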

How the data were processed

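The deposited values were MAS5 signal intensities on a linear scale for 22690 probe sets of MOE430A and 22575 of MOE430B, with MAS5 named per the submitters' processing notes without a version. On each array the mean without the lowest and highest 2% was equal, so the authors had scaled the arrays. Probe sets with 1 gene in the platform annotation (20380 and 14661) were kept where the signal passed its array's 40th percentile on at least 3 of 12 arrays, and 1 stood for its gene (MOE430A before MOE430B, less specific types last, then the brightest). Before taking log2, an offset equal to the chip type's 20th percentile was added (130 for MOE430A, 206 for MOE430B). Changes understate those of dim genes. limma 3.58.1 in R 4.3.3 (lmFit, eBayes with trend) was fitted on all 12 cultures, with Benjamini-Hochberg adjustment over 14311 genes and calls under 0.05. It was tested on simulated data. Tables and figures used Python 3.11.15, numpy 2.4.6, pandas 2.3.3 and matplotlib 3.10.9. Where nothing states separate animals, p-values measure the spread between these cultures. The number of arrays limits the precision.

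Named genes were, outside the set-aside lists, 15 leading genes per direction, ranked by size among calls whose groups did not overlap, up to 3 rises and 3 falls of each of 55 lists, a panel of 33 genes, and 12 genes with opposite probe sets. Pair members, families and cell markers were named besides. Of the panel, H19, Mstn, Gapdh and Rpl3 had no probe set of their own and Rpl3l did not pass the filter, so they were not analysed here, and some other panel genes are not reported here. Members and lists were chosen with earlier results of these data known. Alternatives were the wild-type cultures alone, scan day as a block, the last scan day alone, quantile normalization, median centring, other offsets, filters and probe set choices, other variance models, a test against a 1.5-fold change, and leaving out each culture. Promoters and updated gene names came from RefSeq on GRCm38.p6, with 1 promoter per gene.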

Additional observations from a re-analysis of the deposited data

Results flagged for a closer look

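For 11 leading genes the change from myoblast to myotube differed between wild-type cultures and those lacking Rb, by the interaction term of the limma fit. Each difference below is the log2 change without Rb minus that in wild type. The leading genes were chosen for large wild-type changes, and the same wild-type values enter the difference. A smaller change without Rb is therefore favoured by the choice of genes. The Rb-lacking change also cannot be told apart from scan day.

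Among the rises, Ramp1 differed by -4.65 (4.42 in wild type, -0.22 without Rb, adjusted p = 0.000509) and Cd36 by -3.81 (4.39 and 0.58, adjusted p = 0.00743). Tceal7 differed by -3.30 (5.25 and 1.95, adjusted p = 0.00853), Ckm by -3.16 (4.74 and 1.58, adjusted p = 0.0309) and Ndrg4 by -2.91 (4.65 and 1.73, adjusted p = 0.0127). Fxyd1 differed by -2.33 (4.61 and 2.27, adjusted p = 0.0309) and Asb2 by -2.19 (4.36 and 2.16, adjusted p = 0.00432).

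Among the falls, D17H6S56E-5 differed by 5.16 (-4.62 and 0.53, adjusted p = 0.000124) and Sct by 4.26 (-6.15 and -1.88, adjusted p = 0.00538). 4930579G24Rik differed by 2.05 (-3.59 and -1.54, adjusted p = 0.00706) and Mest by 2.02 (-5.41 and -3.40, adjusted p = 0.0279).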

How the results depend on the processing

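The 4301 calls (2082 higher, 2219 lower) became 2122 (1045 and 1077) in the block fit by scan day, and 1432 (745 and 687) on the last scan day alone, both of which set 3 cultures against 1. Array weights gave 6464 with 3598 higher, and a test against a 1.5-fold change 1341 (572 and 769). Leaving out a culture gave 2849 (without C) to 4963 (without B) calls, 1312 to 2696 higher and 1537 to 2267 lower. The median lay below that of all genes in 24 of 55 lists, and in 23 to 27 without a culture. Genes with opposite probe sets fell from 79 to 14 in the block fit. The 327 genes differing with Rb became 737 with array weights, 79 against a 1.5-fold change and 141 (without C) to 278 (without A) without a culture, alternatives chosen for this count after seeing the data. The other settings gave 267 to 464.

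Of 317 named genes, 235 kept direction and call in the block fit, 78 lost the call and 4 turned. In the block and last-day fits list medians turned to -0.014 (FGF to MAP kinase), -0.26 (endothelial), -0.025 (guidance), -0.0044 (matrix proteases) and -0.063 (neural), and smaller medians to -0.39 (antioxidant, from 0.066), -0.078 (collagens, from 0.13) and -0.067 (Notch, from 0.094). The HOX median of -0.19 turned to 0.033 with no filter and 0.18 with a stricter one. In the same 2 fits Eef1a1 turned to -0.11 (-0.24 after quantile normalization), Igfbp5 to 0.71, Ppargc1a to -0.041 and Pdk4 to -1.08. Without a culture Pdk4 ranged from -0.51 (without A) to 0.69 (without B). Averaging the probe sets of a gene turned Lrrfip1 (-0.29), Masp1 (-0.43), Ticrr (-0.37), Tpm1 (-1.20) and Tpm3 (0.27), and no filter turned Slc8a1 (0.76). The causes were not tested. No paired analysis was possible because the myoblast and myotube cultures share no replicate letter.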
